A study of Homo sapiens with 6 samples.

Results

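The data described here are the 138 transcripts of 10 glycolytic enzyme genes, GPI, ALDOA, TPI1, GAPDH, PGK1, PGAM1, ENO1, PKM, LDHA and LDHB, out of 207167 transcripts of 63190 genes in the deposited RNA-seq table. The genes were chosen by symbol after results of this same comparison were known, because single isoforms of GAPDH and ALDOA differed between the conditions while other isoforms carried most of each gene. Differences between the conditions in these 10 genes are therefore given as a description, and where calls among them are counted nothing is read from the count. Gene level and isoform shares differed in separate ways. Summed over isoforms, 5 of the 10 genes (GAPDH, ALDOA, PGK1, PGAM1 and GPI) were lower in every D391N library than in any control library. Over all genes tested that share was 20.7%. Within the genes, GAPDH-211 took 18.3% ± 4.6 (SD, n = 3) of GAPDH in the control libraries and 0.493% ± 0.31 (SD, n = 3) in the D391N libraries, and ALDOA-209 took 0.281% ± 0.14 (SD, n = 3) of ALDOA in the control libraries and 16.6% ± 6.5 (SD, n = 3) in the D391N libraries. Both share most of their sequence with other isoforms. GAPDH-211 plus GAPDH-204 took 35.3% in D391N and 39.2% in control, and ALDOA-209 plus ALDOA-206 took 23.6% and 24.6%. These sums, chosen after the values were seen, overlapped between the conditions, and the part of shared reads was not tested. Neither isoform kept a limma adjusted p under 0.05 when any 1 library other than D391N replicate 1 was left out.

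Glycolysis splits glucose into pyruvate in the cytosol and yields ATP and NADH. GPI converts glucose 6-phosphate to fructose 6-phosphate, aldolase A cleaves fructose 1,6-bisphosphate, TPI1 interconverts the triose phosphates, GAPDH makes the NADH, PGK1 and PKM make ATP, PGAM1 and ENO1 act between these kinases, and lactate dehydrogenase, a tetramer of LDHA and LDHB subunits, reduces pyruvate to lactate. Most of these genes are also annotated with intron-retaining transcripts, PGK1 and PGAM1 with transcripts that have no defined coding sequence, and PKM, LDHA and GPI with transcripts predicted to undergo nonsense-mediated decay, so the level of a gene is a sum over products that do not all encode the enzyme.

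RNA was taken from cells labelled HEK293 that overexpressed the DIS3L2 D391N mutant (3 libraries) and from control cells of the same label (3 libraries). DIS3L2 is a 3′ to 5′ exoribonuclease that degrades uridylated RNA, and D391N carries a substitution in its catalytic site. The study's methods describe HEK293T-Rex FlipIn cells, a human embryonic kidney line in which doxycycline induces an integrated construct, with 1 line per condition and growth in DMEM with fetal calf serum. They do not say whether the control cells received doxycycline, so construct, line and induction cannot be told apart. Nor do they say which libraries shared a sequencing lane, so lane may coincide with condition. Nothing says that the libraries of a condition came from separate cultures, and the spread between them may be technical. RNA was depleted of rRNA, and levels are RPKM (reads per length of transcript and size of library), exponentiated here from the deposited natural logs.

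DIS3L2, to which reads of the construct count, was at 369 to 512 RPKM in the D391N libraries and at 11.8 to 14.6 RPKM in the control libraries (log2 difference 5.08, and p = 0.10 by an exact two-sided permutation of the libraries, which cannot give a smaller p with 3 against 3). Of 8 HEK293 markers 7 reached a mean of 1 RPKM, all but NEFM, and their sum was 287 to 345 RPKM in D391N and 428 to 481 RPKM in control libraries. Most of the sum came from VIM and KRT8, with means over all libraries of 141 and 140 RPKM. PAX2, LHX1 and EYA1 had means of 1.68, 2.04 and 3.88 RPKM, no higher than some markers of other cells such as HBB (3.85) and DCN (3.30) by more than a small margin. The summed markers of blood cells (4.84 to 7.38 and 6.26 to 9.98 RPKM) and fibroblasts (5.67 to 10.9 and 5.71 to 6.59 RPKM) were low, CD3E, COL1A2 and LUM were under 1 RPKM, and so was each endothelial, keratinocyte and liver marker found. Relative to the deepest library, control replicate 2, depth was 0.642 to 0.842 in the D391N libraries and 0.653 to 0.931 in the other controls. Across transcripts, replicates had Pearson correlations of 0.659 to 0.799 in D391N and of 0.891 to 0.918 in control. D391N replicate 2 stands apart, since transcripts annotated as intron-retaining took 49.2% of the RPKM of the 10 genes there. That share was 20.3% and 23.7% in D391N replicates 1 and 3 and 17.4% to 17.8% in the controls. By gene it was highest in D391N replicate 2 for PKM (89.9%), ENO1 (49.4%), GPI (21.2%) and LDHA (5.12%). For GAPDH (43.8%), ALDOA (15.5%), TPI1 (5.88%) and LDHB (3.07%) another library was higher. The main values are given for each library or also without D391N replicate 2. Each value is relative to its library, so less RNA of a gene per cell, fewer cells with it and more of other RNA cannot be told apart.

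The isoforms differ in how much sequence is their own, which sets what 50-base reads can separate. GAPDH-211 (ENST00000619601) starts inside the gene with an exon of 3 bases (chr12:6645771-6645773). Of its 1037 stretches of 50 bases only 3 are found in no other GAPDH isoform, and these lie at its 3′ end, not over that exon. The other 1034 are all in GAPDH-201, which ends at chr12:6647537 where GAPDH-211 ends at chr12:6647540. GAPDH-204 (ENST00000396859) has no stretch of its own. ALDOA-209 (ENST00000564688) leaves out an exon of 84 bases (chr16:30080627-30080710) that ALDOA-206 (ENST00000563060) holds, and 44 of its 564 stretches are its own. The following windows of 30 bases cross exon junctions that are found in 1 isoform of the gene only, among those with a sequence, and are shown for isoforms of GAPDH, ALDOA, ENO1 and LDHA described below. In isoforms with a coding sequence only windows made up of coding bases were kept. Under that limit GAPDH-211, GAPDH-204, ALDOA-206, GPI-208, PKM-202 and LDHA-210 have no such window. Of these, GAPDH-211 and ALDOA-206 do have stretches of 50 bases of their own, 3 and 148. The windows are read 5′ to 3′ on the strand of the gene from the GENCODE annotation of GRCh37, with the downstream exon in capitals. The files use GRCh38, so all positions here are those of the GRCh37 annotation, matched by transcript identifier for 133 of the 138 transcripts.
ALDOA-209, coding, + strand, chr16:30080285-30080299 joined to chr16:30080820-30080834: agtatctgccagcagGTGCTGGCTGCTGTC
GAPDH-202, coding, + strand, chr12:6645973-6645983 joined to chr12:6646086-6646104: atggaagaaatGCGAGATCCCTCCAAAATC
GAPDH-209, intron-retaining, + strand, chr12:6644143-6644157 joined to chr12:6645660-6645674: caaggagagctcaagATTTGGTCGTATTGG
ENO1-204, intron-retaining, - strand, chr1:8931950-8931964 joined to chr1:8930453-8930467: gctatatggggaaggAGCGTCTCCCAGGCC
LDHA-214, annotated for nonsense-mediated decay, + strand, chr11:18418495-18418515 joined to chr11:18424387-18424395: gccatcagtatcttaatgaagTGGATATCT
LDHA-221, annotated for nonsense-mediated decay, + strand, chr11:18418487-18418501 joined to chr11:18422454-18422468: tggcctgtgccatcaCCGTCTTAATTTGGT

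Among the enzymes of the upper pathway, GPI (ENSG00000105220, chr19:34850385-34893318) summed to 133, 155 and 177 RPKM in D391N and to 212, 233 and 264 RPKM in control, where values are given, here and below, in the order of replicates 1, 2 and 3. All D391N libraries were below all controls, with means of 155 ± 21.8 and 236 ± 26.0 RPKM (SD, n = 3 each) and a log2 difference of -0.61 (standard error 0.15). ALDOA (ENSG00000149925, chr16:30075485-30081778) was at 198, 93.2 and 161 RPKM in D391N and at 265, 235 and 283 RPKM in control, again without overlap, and its log2 difference of -0.85 (standard error 0.33) was -0.54 without D391N replicate 2. TPI1 (ENSG00000111669, chr12:6976283-6980112) was at 526, 369 and 311 RPKM in D391N and at 569, 540.0 and 484 RPKM in control. For TPI1 the conditions overlapped, since D391N replicate 1 lay above control replicate 3, and the log2 difference was -0.43 (standard error 0.23). Over all genes tested, each with a mean of at least 1 RPKM, 20.7% were lower in every D391N library than in any control and 10.5% were higher, the background against which the 5 genes stand, and nothing is read from the comparison because the genes were chosen on it.

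In the lower pathway, GAPDH (ENSG00000111640, chr12:6643678-6647540) was at 960.1, 506 and 822 RPKM in D391N and at 1273, 1138 and 1215 RPKM in control, with a log2 difference of -0.71 (standard error 0.28) that was -0.44 without D391N replicate 2. PGK1 (ENSG00000102144, chrX:77166236-77384792) was at 82.5, 76.5 and 104 RPKM in D391N and at 194, 153 and 258 RPKM in control. Its means were 87.8 ± 14.7 and 202 ± 53.2 RPKM (SD, n = 3 each) and its log2 difference, -1.18 (standard error 0.26), was the largest in size of the 10. PGAM1 (ENSG00000171314, chr10:99185948-99193201) was at 85.8, 55.5 and 72.2 RPKM in D391N and at 141, 112 and 94.8 RPKM in control, a log2 difference of -0.71 (standard error 0.25). GAPDH, PGK1 and PGAM1 did not overlap between the conditions.

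ENO1 (ENSG00000074800, chr1:8921059-8939249) had the highest mean level of the 10 genes, at 1589.9, 2920 and 1776 RPKM in D391N and at 1798, 1794 and 1882 RPKM in control. PKM (ENSG00000067225, chr15:72491370-72524160) was at 953, 2968 and 1032 RPKM in D391N and at 1102, 1052 and 1071 RPKM in control. In both genes only D391N replicate 2 was above the controls, and the log2 differences, 0.15 for ENO1 (standard error 0.27) and 0.41 for PKM (standard error 0.53), were smaller than the spread between D391N libraries and became -0.12 for each without that library. With each transcript weighted by its length, which brings the sum closer to a count of reads, they were -0.11 for ENO1 and 0.0047 for PKM.

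LDHA (ENSG00000134333, chr11:18416107-18429972) was at 598, 747 and 628 RPKM in D391N and at 813, 741 and 851 RPKM in control, and D391N replicate 2 lay above control replicate 2. Its log2 difference was -0.29 (standard error 0.11). LDHB (ENSG00000111716, chr12:21788276-21910791), the other subunit, was at 839, 1201 and 1194 RPKM in D391N and at 1156, 1206 and 1194 RPKM in control, with a log2 difference of -0.16 (standard error 0.17). LDHA and LDHB are the genes whose sign rests on the scaling: median centring of the libraries gave -0.072 and 0.063, and quantile normalization gave 0.18 and 0.33. Median centring moved the median of all genes by 0.22 on the log2 scale and quantile normalization by 0.17, and GAPDH, ALDOA, PGK1, PGAM1, GPI and TPI1 stayed negative under both. Quantile normalization changed some sizes by over 1.5 times: it gave -0.23 for GAPDH, -0.042 for TPI1, 0.84 for ENO1 and 1.15 for PKM, and median centring gave 0.37 for ENO1, 0.63 for PKM and -0.21 for TPI1. Added together, the 10 genes held 5965, 9090.4 and 6277 RPKM in D391N and 7522, 7205 and 7597 RPKM in control, so that their total overlapped between the conditions (log2 difference -0.091, standard error 0.19). In order of the control mean the genes ran ENO1, GAPDH, LDHB, PKM, LDHA, TPI1, ALDOA, GPI, PGK1 and PGAM1. The difference was negative for 8 of the 10, where it was negative for 57.3% of all tested genes. Among neighbours in the order of levels, GAPDH and LDHB, ALDOA and GPI, and GPI and PGK1 differed by less than the sum of their standard deviations.

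**Figure D1:**
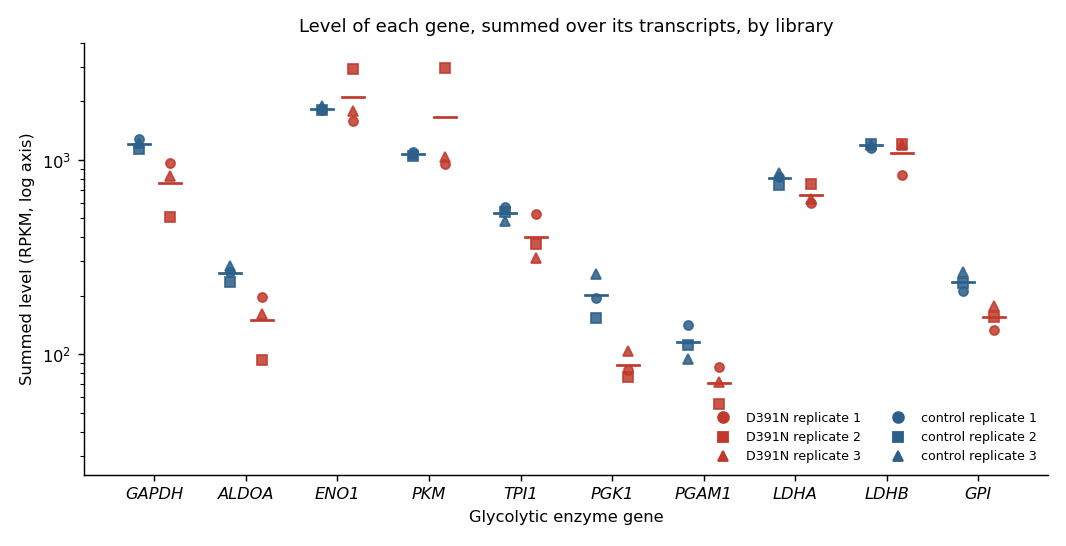
Summed level of each gene (RPKM, log axis) in the 3 control libraries (blue) and the 3 D391N libraries (red), with marker shapes for replicates 1, 2 and 3 and a line at each mean. GAPDH, ALDOA, PGK1, PGAM1 and GPI do not overlap between the conditions, and D391N replicate 2 stands alone above the other libraries for ENO1 (2920 RPKM) and PKM (2968 RPKM).

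At the level of transcripts, 96 of the 138 had a mean of at least 1 RPKM and were tested in the fit over all 54671 such transcripts, and 26 of the 138 rested on fewer than 3 reads in every library by their posterior variance. The difference was negative for 66 of the 96 and positive for 30, with a median of -0.47 on the log2 scale, while 54.2% of all tested transcripts were negative with a median of -0.072. D391N was below every control library for 32 and above every control library for 6, where the shares over all tested transcripts were 15.6% and 10.1%. GAPDH-211 and ALDOA-209 had a limma adjusted p under 0.05, a call that 0.0604% of all tested transcripts received. These counts follow from how the genes were chosen and carry no evidence of their own. Both calls were lost with a replicate block and when any 1 library other than D391N replicate 1 was left out. Of 15 alternatives, GAPDH-211 was called in 5 and ALDOA-209 in 9. GAPDH-211 was also not called with a pseudocount of 0.01, a filter at 0.1 RPKM, no filter or median centring. Leaving out D391N replicate 1 raised the calls both among the 10 genes and over all tested transcripts, and nothing is read from the rise among the 10. None of the 10 gene sums was called, where 0.14% of all tested genes were.

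GAPDH-211, annotated as protein coding, was at 7.32, 2.86 and 1.23 RPKM in D391N but at 173, 213 and 275 RPKM in control. It made up 0.763%, 0.566% and 0.149% of GAPDH in D391N and 13.6%, 18.7% and 22.7% in control, a log2 difference in level of -6.14 (standard error 0.61). The posterior variance corresponded to about 4.15, 2.51 and 0.772 reads in D391N and to 259, 464 and 417 reads in control. By this estimate the D391N values rest on very few reads and the control values on more. Only 3 of the 1037 stretches of GAPDH-211 are its own, so its control level also depends on how shared reads were divided.

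Its closest partner in sequence among the abundant isoforms, GAPDH-204, holds 96.6% of the 50-base stretches of GAPDH-211 and was at 452, 107 and 297 RPKM in D391N and at 258, 241 and 261 RPKM in control. GAPDH-204 made up 47.1%, 21.2% and 36.2% of the gene in D391N and 20.2%, 21.1% and 21.5% in control, higher in D391N replicates 1 and 3 and within the control range in replicate 2. Added together, GAPDH-204 and GAPDH-211 took 47.9%, 21.8% and 36.3% of GAPDH in D391N and 33.8%, 39.8% and 44.1% in control, means of 35.3% ± 13.1 and 39.2% ± 5.2 (SD, n = 3 each) with overlapping libraries. Without D391N replicate 2 the mean in D391N was 42.1%, above that of control. This sum was chosen after the values of both were seen, and the part that the division of shared reads between these isoforms has in the difference was not tested.

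The intron-retaining GAPDH-209 (ENST00000492719) had the highest mean share of the gene, 33.2% ± 4.6 in D391N and 35.5% ± 1.5 in control (SD, n = 3 each). Its level was lower in each D391N library, at 363, 145 and 270.2 RPKM against 432, 418 and 436 RPKM, in step with the gene sum. GAPDH-202 (ENST00000396856) was at 69.5, 167 and 141 RPKM in D391N and at 321, 198 and 186 RPKM in control, also without overlap, while its share ranged from 7.24% to 33.1% between D391N libraries. GAPDH-210, a short intron-retaining isoform of 390.0 bases at the start of the gene, overlapped between the conditions at 51.6, 68.0 and 52.3 RPKM in D391N and 60.5, 45.5 and 38.2 RPKM in control. GAPDH-201 (ENST00000229239), which holds 1034 of the 1037 stretches of GAPDH-211, was listed at 0.975, 0.806 and 1.09 RPKM in D391N and 2.64, 1.22 and 1.58 RPKM in control.

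ALDOA-209, a protein-coding fragment of 613 bases with 5 exons, was at 26.6, 22.4 and 19.7 RPKM in D391N but at 1.13, 0.339 and 0.773 RPKM in control. It took 13.5%, 24.1% and 12.2% of ALDOA in D391N and 0.427%, 0.144% and 0.273% in control. All D391N libraries were above all controls by a log2 difference of 4.87 (standard error 0.41), which is 3.79 with a pseudocount of 1 and 5.07 with a pseudocount of 0.01, since the control values rest on about 1.95, 0.0184 and 1.07 reads. The D391N values rest on 43.2, 56.7 and 31.7 reads.

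ALDOA-206, a protein-coding transcript of 9 exons, had the largest difference in share. It was at 16.4, 5.11 and 11.7 RPKM in D391N and close to 63 RPKM in every control library, and its share was 7.01% ± 1.4 and 24.3% ± 2.3 (SD, n = 3 each). ALDOA-214 was lower in the same way, at 14.1, 3.47 and 7.52 RPKM in D391N and 37.4, 36.0 and 45.3 RPKM in control. ALDOA-203 (ENST00000562168), by contrast, overlapped at 33.4, 17.4 and 39.2 RPKM in D391N and 36.5, 33.3 and 28.2 RPKM in control, and with the gene sum lower its share was 20.0% ± 3.9 in D391N and 12.6% ± 2.3 in control (SD, n = 3 each). ALDOA-206 led in each of the 3 controls. In D391N the lead was taken by ALDOA-212 in replicate 1, ALDOA-209 in replicate 2 and ALDOA-203 in replicate 3, of which ALDOA-203 led by mean share. Without D391N replicate 2, ALDOA-209 took 12.8% and ALDOA-206 7.77% of the gene in D391N. The intron-retaining ALDOA-212 was at 45.6 RPKM in D391N replicate 1 but at 2.56 and 4.4 RPKM in replicates 2 and 3, against 18.5 to 41.6 RPKM in control. ALDOA-206 and ALDOA-209 share 91.7% of the stretches of ALDOA-209, and added together they took 23.6% ± 5.3 of the gene in D391N and 24.6% ± 2.2 in control (SD, n = 3 each), or 20.6% in D391N without replicate 2, a sum again chosen after the values were seen.

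**Figure D2:**
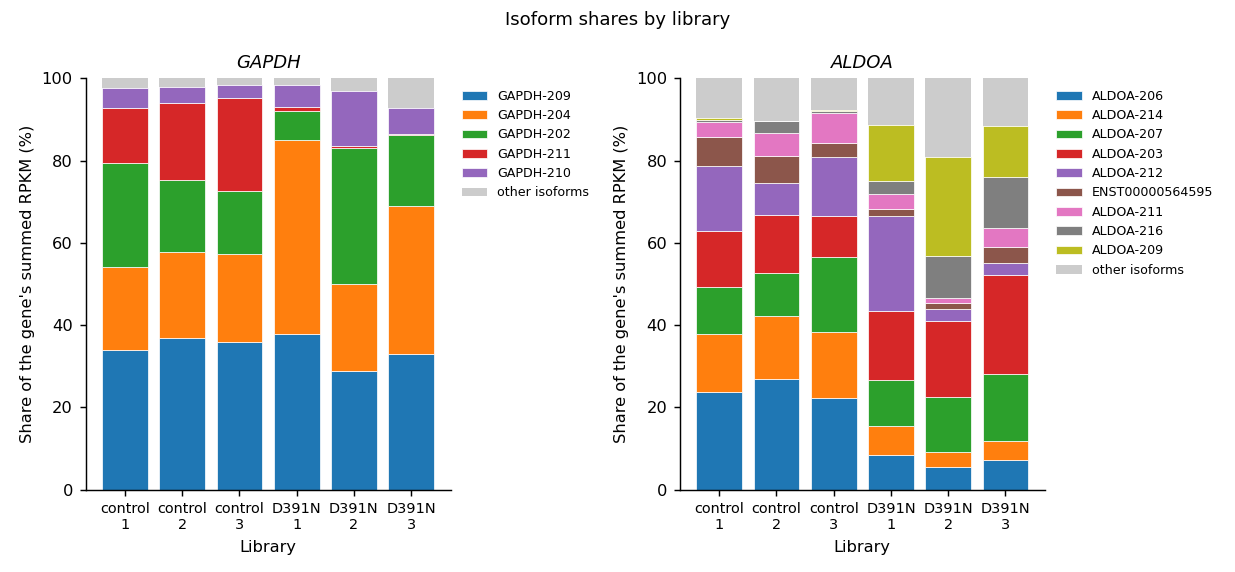
Share of each isoform in the summed RPKM of GAPDH and ALDOA (percent, stacked to 100) in the 3 control and 3 D391N libraries, with isoforms of under 5% in both conditions in grey. GAPDH-211 (red, left) takes 13.6% to 22.7% in the controls and under 1% in D391N, and ALDOA-209 (olive, right) takes under 0.5% in the controls and 12.2% to 24.1% in D391N.

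**Figure D3:**
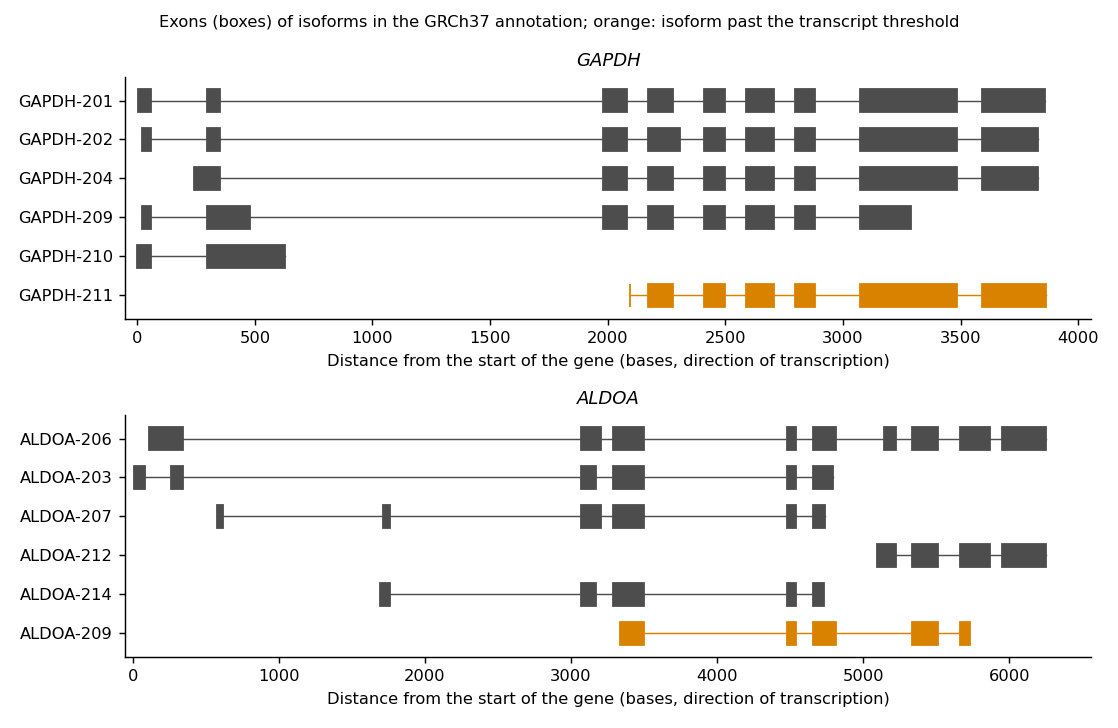
Exons (boxes) and introns (lines) of the main isoforms of GAPDH and ALDOA in the GRCh37 annotation, by distance from the start of the gene in bases, with GAPDH-211 and ALDOA-209 in orange. GAPDH-211 repeats exons that other isoforms hold after a first exon of 3 bases, and ALDOA-209 lacks the 84-base exon of ALDOA-206.

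Among the other upper-pathway genes, GPI was led by GPI-208 in control and by GPI-214 in D391N by mean share, but not in each library, since GPI-214 led in control replicate 3 and GPI-209 in D391N replicate 2. GPI-208 (ENST00000588991), a protein-coding transcript of 18 exons, was at 23.9, 12.4 and 34.4 RPKM in D391N and at 72.9, 69.4 and 75.2 RPKM in control, and its share was 15.1% ± 6.2 and 30.9% ± 3.1 (SD, n = 3 each), or 18.7% in D391N without replicate 2. GPI-214 (ENST00000590375), a fragment of 529 bases, overlapped at 29.1, 39.8 and 58.8 RPKM in D391N and 54.6, 65.5 and 78.9 RPKM in control, and kept a share of 26.9% ± 5.8 and 27.9% ± 2.1 (SD, n = 3 each). No stretch of 50 bases belongs to GPI-208 alone, and GPI-201, also without one, was at 23.2, 1.94 and 13.1 RPKM in D391N and at 6.79, 1.28 and 0.536 RPKM in control. TPI1 was carried by 1 transcript in both conditions: TPI1-202 (ENST00000396705) took 88.2% ± 7.1 in D391N and 90.6% ± 0.67 in control (SD, n = 3 each). The largest share difference in TPI1 was that of the intron-retaining TPI1-204 (ENST00000474253), at 0.616, 18.8 and 18.6 RPKM in D391N and 0.15 to 0.306 RPKM in control, on at most 7.85 reads in any library.

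In PGK1 the levels differed between conditions while PGK1-205 led in all 6 libraries. PGK1-205 (ENST00000491291) took 52.6% ± 5.1 in D391N and 55.8% ± 2.2 in control (SD, n = 3 each), and PGK1-202, PGK1-201 and PGK1-203 followed in that order of mean share. PGK1-201 (ENST00000373316), the full-length coding transcript of 4812 bases, with 3428 stretches of its own, was at 13.5, 10.4 and 13.2 RPKM in D391N and at 28.1, 27.1 and 38.0 RPKM in control. Of the 4 tested PGK1 transcripts 3 were below the controls in every D391N library, where 15.6% of all tested transcripts were. PGK1-203 was the exception. PGAM1 was likewise 1 transcript for the most part: PGAM1-201 (ENST00000334828) took 92.8% ± 4.2 and 97.5% ± 0.54 (SD, n = 3 each), at 82.4, 48.9 and 68.1 RPKM in D391N and 137, 110.0 and 92.2 RPKM in control. The minor PGAM1-202 (ENST00000467867), which has no defined coding sequence, was at 3.12, 5.80 and 3.86 RPKM in D391N and at 2.94, 1.40 and 1.94 RPKM in control. Its D391N values all lay above its controls while the gene lay below.

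In ENO1 the isoform with the highest mean share, a coding fragment, hardly differed between libraries, whereas ENO1-204 and the longer coding ENO1-201 did. That fragment, ENO1-207 (ENST00000497492) of 647 bases and 7 exons, was at 1188, 1131 and 1238 RPKM in D391N. In control it was at 1228, 1235 and 1327 RPKM. ENO1-204 (ENST00000486051), an intron-retaining transcript of 536 bases with 237 of 487 stretches of its own, was at 9.21, 1426 and 239.6 RPKM in D391N and at 13.7, 18.6 and 31.7 RPKM in control. Its share was 0.579%, 48.9% and 13.5% in D391N and at most 1.68% in control, so D391N replicate 1 was below the controls and the other 2 libraries above them, and the mean in D391N was 21.0% with replicate 2 and 7.03% without it. ENO1-201 (ENST00000234590), the protein-coding transcript of 1781 bases and 12 exons, was at 376, 323 and 270.3 RPKM in D391N. In control it was at 523, 506 and 493 RPKM, without overlap.

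By RPKM, PKM was carried by the short intron-retaining PKM-220 (ENST00000568743), of 2 exons and 580.0 bases, at 599, 2511 and 749.5 RPKM in D391N and 572, 564 and 612 RPKM in control. Its share was 73.4% ± 10.9 in D391N and 54.2% ± 2.7 in control (SD, n = 3 each), and 67.7% in D391N without replicate 2. RPKM divides reads by length, so a short transcript takes a larger share of RPKM than of reads. PKM-205, another short intron-retaining isoform, was at 139 RPKM in D391N replicate 2 and between 1.56 and 4.31 RPKM in the other 5 libraries. The full-length coding PKM-202 (ENST00000335181) was lower in D391N, at 105, 59.7 and 85 RPKM against 195, 182 and 163 RPKM, and so was PKM-222 (ENST00000569857), at 207, 141 and 147 RPKM against 258, 255 and 229 RPKM. PKM-202 has no stretch of 50 bases of its own.

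Single pairs of libraries lay farthest apart in LDHA among the 10 genes, through D391N replicate 2, and its isoform differences lay as much between the D391N libraries as between the conditions. LDHA-221 (ENST00000543695), annotated for nonsense-mediated decay, was at 113, 450.2 and 252 RPKM in D391N and at 106, 113 and 147 RPKM in control, and its share was 19.0%, 60.3% and 40.1% in D391N and 13.0%, 15.2% and 17.2% in control. LDHA-214 (ENST00000536528), of the same annotation, was at 198, 11.1 and 91.4 RPKM in D391N and at 285, 267 and 328 RPKM in control. In both isoforms D391N replicate 1 was nearest to the controls and replicate 2 farthest from them. LDHA-221 and LDHA-214 share 70.1% of the stretches of LDHA-221, each has a junction of its own, printed above, and together they took 56.1% ± 5.0 of LDHA in D391N, or 53.3% without replicate 2, and 51.7% ± 3.9 in control (SD, n = 3 each). Without replicate 2 the D391N means were 29.5% for LDHA-221 and 23.8% for LDHA-214, against 15.1% and 36.6% in control. LDHA-210, without a stretch of its own, was at 0.408, 147 and 37 RPKM in D391N and at 0.414 to 0.605 RPKM in control. The coding LDHA-203, with 200 stretches of its own, was at 55.5, 14.5 and 49.2 RPKM in D391N and at 116, 80.9 and 77.9 RPKM in control. In LDHB, LDHB-202 (ENST00000396075) took 78.0% ± 5.6 and 78.3% ± 3.2 (SD, n = 3 each), and its largest share difference, that of the intron-retaining LDHB-206 (ENST00000470985), was smaller than 1 percentage point.

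**Figure D4:**
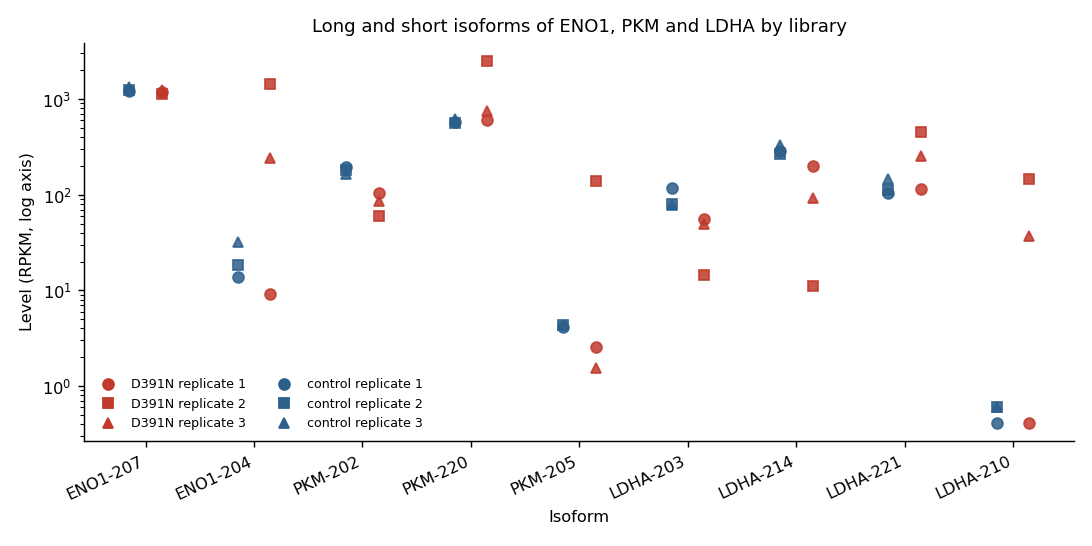
Level (RPKM, log axis) of 9 isoforms of ENO1, PKM and LDHA in the 3 control libraries (blue) and the 3 D391N libraries (red), with marker shapes for replicates 1, 2 and 3. In ENO1-204, PKM-220, PKM-205, LDHA-221 and LDHA-210 the highest library is D391N replicate 2, and in PKM-202, LDHA-203 and LDHA-214 it is the lowest.

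The distance between the isoform make-up of 2 libraries was taken as the sum of the positive differences in share, that is, the percent of a gene's RPKM that lies on different isoforms. In ALDOA the 9 pairs of a D391N and a control library lay between 30.1% and 53.7% apart, above the D391N pairs (21.0% to 29.2%) and the control pairs (10.5% to 17.9%), and ALDOA was the only gene of the 10 whose between-condition pairs all exceeded the pairs within conditions. In GAPDH the median distance was 26.2% between conditions, 23.5% within D391N and 8.98% within control, and in GPI it was 27.8%, 27.2% and 9.71%. In ENO1, PKM and LDHA the distances depended on the D391N library: replicate 2 lay 47.2% to 48.1%, 34.2% to 39.3% and 68.2% to 73.4% from the controls, and replicate 1 lay 4.31% to 6.44%, 6.08% to 11% and 13.1% to 17.4% from them. The make-up of TPI1, PGK1, PGAM1 and LDHB differed between conditions by a median of 7.29%, 6.75%, 3.31% and 4.18%, less than the median within D391N for each. Control pairs were closer to each other than D391N pairs in all 10 genes by their medians, which range from 0.836% to 14.1% in control.

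**Figure D5:**
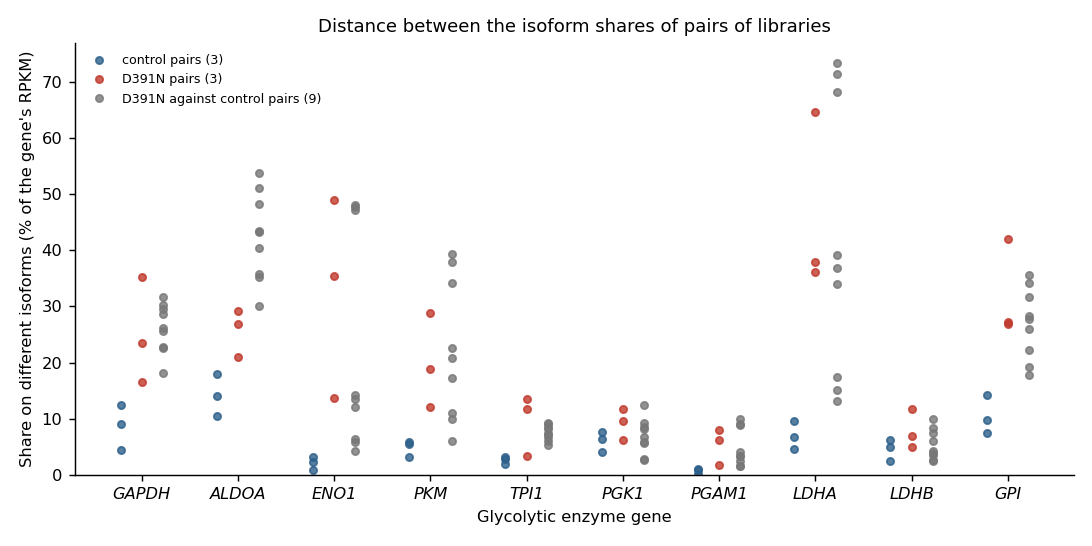
Distance between the isoform shares of pairs of libraries (percent of the gene's RPKM on different isoforms) for each gene, for the 3 control pairs (blue), the 3 D391N pairs (red) and the 9 pairs across conditions (grey). The grey points lie above both other sets in ALDOA, by a narrow margin over the D391N pairs (lowest 30.1% against highest 29.2%). In ENO1, PKM and LDHA they spread at least as widely as the D391N pairs.

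By annotation, protein-coding transcripts held 67.0%, 41.1% and 64.5% of the RPKM of the 10 genes in D391N and 69.0%, 69.3% and 67.2% in control, and transcripts annotated for nonsense-mediated decay held 8.82% to 11.3% and 11% to 11.6%. Over the 10 genes together the shift of D391N replicate 2 thus lay between coding and intron-retaining transcripts. It was not shared by all genes: intron-retaining transcripts took 49.4% of ENO1 and 89.9% of PKM there, but 43.8% of GAPDH and 3.07% of LDHB. By length, the median log2 difference from the control mean over the 26 tested transcripts under 600 bases was -0.67, 0.36 and 0.094 in D391N replicates 1, 2 and 3. Over the 27 from 600 to under 1200 bases it was -0.239, -0.897 and -0.394. Over the 42 of at least 1200 bases it was -0.43, -0.62 and -0.72. Both longer groups were thus lower in all D391N libraries by their medians, and the shortest group in replicate 1 only. Transcripts of the whole table under 200 bases took 2.43%, 0.342% and 1.52% of all RPKM in D391N and 2.89% to 3.18% in control. The part that transcript length and the recovery of short RNA have in the differences was not tested.

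Other genes of the pathway, which the choice of the 10 did not use, were compared by limma. The list held 44 genes: hexokinases and their relatives, phosphofructokinases and the enzymes that set fructose 2,6-bisphosphate, tissue-specific relatives of the 10 enzymes, glucose and lactate transporters, pyruvate entry and dehydrogenase genes, and the regulators HIF1A and MYC. Of these, 28 were tested, and none had an adjusted p under 0.05 (limma, adjusted p from 0.0907 to 0.988). At an unadjusted p under 0.05 there were 13, 11 lower and 2 higher in D391N, where 22.7% of all tested genes reached that level and 16.0% did so with a lower value in D391N. On the log2 scale 20 of the 28 were negative and 8 positive, where 57.3% of all tested genes were negative, with a median of -0.27 against -0.090 over all genes. In every D391N library 12 were lower and 3 higher than in any control, where 20.7% and 10.5% of all tested genes were. The 5 with the highest level were PDHA1, a subunit of pyruvate dehydrogenase (log2 difference 0.20, limma adjusted p = 0.663), HIF1A, the hypoxia-inducible regulator (-0.046, adjusted p = 0.893), the phosphofructokinase PFKP (-0.0065, adjusted p = 0.988), the lactate transporter SLC16A1 (0.41, adjusted p = 0.262) and the phosphofructokinase PFKM (-0.30, adjusted p = 0.449). Without D391N replicate 1, which raises the calls over all genes from 29 to 2261, ALDOC (-1.65, limma adjusted p = 0.045) and PDHB (-1.01, adjusted p = 0.0386) passed. Of 99 tested transcripts of the list none passed and 21 had an unadjusted p under 0.05, where 17.6% of all tested transcripts had one, and the smallest adjusted p was 0.0675 for PFKP-208, at 21.7, 23.4 and 10.4 RPKM in D391N and 1.48, 1.48 and 0.681 RPKM in control.

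Reads of these genes can also match processed pseudogenes, of which 104 with the symbols of 9 of the 10 genes are in the table. Copies of GAPDH made up 1.14% to 1.35% of GAPDH and copies together, and the highest share of any gene in any library was 8.69%, for PGAM1 in D391N replicate 2. Of the 8 copies with a mean of at least 1 RPKM none passed the threshold (limma, adjusted p from 0.103 to 0.979) and 2 had an unadjusted p under 0.05: TPI1P1 with a log2 difference of -1.07 and GAPDHP35 with -1.71. Of all tested genes 22.7% reached that level. Over the 6 libraries, the genes outside these lists whose level followed the mean profile of the 10 genes most closely, out of 8261 with a mean of at least 10 RPKM, were POMT1 (Pearson r 0.997), FBXW4 (r 0.992) and METTL7A (r 0.991). These are descriptions over 6 libraries that share their condition, and no p is given.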

How the data were processed

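The genes, isoforms and lists were chosen with earlier results of these data known. Per the study's methods, the authors depleted rRNA, made ScriptSeq libraries, sequenced single-end reads of 50 bases with 3 libraries per lane, trimmed them (cutadapt), mapped them to the coding and non-coding transcripts of Ensembl (Segemehl, hg38 per the labels) and estimated levels with BitSeq, which divides shared reads between isoforms. Tool versions are not given in the sources used here. The deposited columns give each transcript in each library a natural log RPKM, as a posterior mean, with the posterior variance beside it. Read totals were not used here.

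Values were exponentiated, summed per gene, and compared as log2(RPKM + 0.1), which understates the differences of low features, by limma 3.58.1 with trend (R 4.3.3) for features with a mean of at least 1 RPKM, with Benjamini-Hochberg adjustment over all of them and a threshold of 0.05. Reads behind a value were estimated by taking the posterior variance as that of a Poisson count, and relative depth from transcripts without reads. They cover counting and assignment error only. The limma script was tested on simulated data. Symbols were found for 88.2% of genes, and lengths and biotypes for 90.2% of transcripts, in a GENCODE annotation of GRCh37. Tables and plots used Python 3.11.15, pandas 2.3.3, numpy 2.4.6, scipy 1.17.1 and matplotlib 3.10.9. The isoforms named are, per gene, the one with the highest mean share, the one with the largest share difference and any called, with others of at least 5% share, and all other isoforms and the summed pairs were chosen after their values were seen. Libraries of the same number deviated from their group means with correlations of 0.087, 0.055 and -0.11. With 3 libraries per condition these cannot settle whether the numbers pair libraries, which the sources do not say. The main fit did not pair them. Alternatives were other pseudocounts, filters, scalings, limma without trend, a replicate block, each library left out, other sets of transcripts per gene and, chosen after seeing the data, length-weighted sums.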

Additional observations from a re-analysis of the deposited data

How the results depend on the processing

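The counts of calls over all features depended on the settings. Over all tested transcripts 33 were called, and the count was 142 with a pseudocount of 1, 17 with a mean of at least 5 RPKM, 18 with no filter on low values, 52 with limma without trend, 7 with the replicate block and from 2 to 4961 with single libraries left out, the highest without D391N replicate 1 and 17 without D391N replicate 2. Over all tested genes 29 were called, and the count was 61 with a pseudocount of 1, 16 with a pseudocount of 0.01, 6 with a mean of at least 5 RPKM, 18 with no filter, 14 with median centring, 17 with quantile normalization, 2 with the replicate block and from 2 to 2261 with single libraries left out. For the other glycolysis genes the count of 0 became 2 without D391N replicate 1, and ranged from 0 to 2, and for their transcripts it became 1 with a pseudocount of 1 and ranged from 0 to 8 with single libraries left out. The pseudogene copies had 0 calls under each alternative run.

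The median log2 difference of the 10 gene sums, -0.52, was -0.30 with median centring, -0.13 with quantile normalization and -0.58 to -0.42 with single libraries left out, and LDHA was reversed, at 0.18, with quantile normalization. Over the alternatives LDHB ranged from -0.24 to 0.33, ENO1 from -0.12 to 0.84 and PKM from -0.12 to 1.15, so these also changed sign, while the other 6 genes stayed negative under each. The leading isoform by mean share differed between the conditions in 4 genes (GAPDH, ALDOA, LDHA and GPI), in 2 counting protein-coding transcripts only and in 3 or 4 with single libraries left out, although in LDHA and GPI single libraries of both conditions had the same leader. Some isoforms rested on few estimated reads: 26 of 138 transcripts had under 3 in every library. That estimate comes from the posterior variance, in which depth and the assignment of shared reads cannot be told apart. The cause of these changes was not tested.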
